A study of Mus musculus with 20 samples.

Results

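The 10 genes described here are immediate early response genes: the AP-1 family genes Fos, Fosb, Jun, Junb and Atf3, the zinc finger genes Egr1, Egr2 and Egr3, the nuclear receptor gene Nr4a1, and Ier2. They were chosen by name from the 21150 genes that the arrays name. Each had exactly 1 probe, found by its RefSeq accession. Their expression was followed in 5 tissues (liver, the white fat of the mesentery, brown fat, ileum and colon) of male C57BL/6J mice, which entered the study at 5 weeks of age and were fed 1 of 4 diets for 13 weeks. Fat supplied 10% of the energy of the control diet (CD) and 60% of that of the high fat diet (HFD). For HFD+PP, porphyran made up 2% of the high fat feed by weight, and for HFD+Ex an extract of nori made up the same 2%. Nori is an edible red alga, and porphyran is its sulfated polysaccharide. RNA of the 7 mice of a diet was pooled per tissue and put on 1 of 20 1-colour arrays, so each tissue and diet is a single value with no error of its own. All 5 arrays of a diet come from the same mice. HFD is the reference of both supplement comparisons.

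Immediate early genes are transcribed within minutes of a growth factor, cytokine, calcium or stress signal by factors already present in the cell, with no need for new protein. Serum response factor, which binds CArG boxes, and CREB and ATF factors, which bind cAMP response elements, are the best known of these factors. Most of the products are transcription factors themselves, and most of the transcripts are short-lived. Because the response is so fast, the genes can also respond while tissue is being taken. The part of tissue handling in the values below was not tested, and values of heat shock, hypoxia, clock and glucocorticoid-responsive genes are given beside them.

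The 250 bases before the RefSeq start (assembly GRCm38.p6) are shown for Egr2, Fos, Jun and Atf3, whose levels went together most closely across diets, and for Nr4a1, whose levels did not go with theirs. Sequences for 7 of the 10 members were matched in the promoter table. Each runs 5′ to 3′ on the gene's strand, and capitals mark a CArG box, TGACG, TGACNTCA or TATAAA. The windows are chr10:67537619-67537868 on the plus strand for Egr2, chr12:85473640-85473889 on the plus strand for Fos, chr4:95052223-95052472 on the minus strand for Jun, chr1:191183334-191183583 on the minus strand for Atf3 and chr15:101266596-101266845 on the plus strand for Nr4a1.
Egr2: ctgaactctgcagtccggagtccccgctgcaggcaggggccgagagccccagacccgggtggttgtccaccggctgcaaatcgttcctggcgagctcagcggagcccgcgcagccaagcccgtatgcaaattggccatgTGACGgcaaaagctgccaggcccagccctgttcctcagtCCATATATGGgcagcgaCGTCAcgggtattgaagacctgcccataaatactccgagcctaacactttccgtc
Fos: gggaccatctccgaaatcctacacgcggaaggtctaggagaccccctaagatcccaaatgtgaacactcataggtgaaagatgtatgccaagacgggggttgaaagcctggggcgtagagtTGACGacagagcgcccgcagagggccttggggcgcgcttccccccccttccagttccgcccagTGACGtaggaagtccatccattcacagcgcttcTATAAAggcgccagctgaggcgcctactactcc
Jun: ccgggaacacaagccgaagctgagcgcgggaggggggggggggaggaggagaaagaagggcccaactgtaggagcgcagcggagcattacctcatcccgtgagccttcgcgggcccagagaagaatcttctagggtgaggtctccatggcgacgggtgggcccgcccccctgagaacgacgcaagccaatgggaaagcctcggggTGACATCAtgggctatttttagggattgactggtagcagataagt
Atf3: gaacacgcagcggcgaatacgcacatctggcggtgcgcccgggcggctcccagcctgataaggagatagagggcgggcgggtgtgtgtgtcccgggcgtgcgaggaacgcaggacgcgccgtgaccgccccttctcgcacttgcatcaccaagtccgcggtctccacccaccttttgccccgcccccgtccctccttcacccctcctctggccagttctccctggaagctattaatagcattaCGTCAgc
Nr4a1: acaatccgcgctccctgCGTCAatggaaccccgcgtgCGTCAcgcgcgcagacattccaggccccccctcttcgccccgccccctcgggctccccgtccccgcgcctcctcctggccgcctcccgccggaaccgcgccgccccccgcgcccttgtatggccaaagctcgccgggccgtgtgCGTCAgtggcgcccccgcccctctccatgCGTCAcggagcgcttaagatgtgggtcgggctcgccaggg

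In the Egr2 window a CArG box lies 72 to 63 bases before the start, between 2 matches to TGACG, the core of the cAMP response element. Of the 5 starts listed for Egr2, the middle one is shown, and 4 of the 5 had a CArG box in this window. Fos had 2 TGACG matches and a TATAAA 33 to 28 bases before its start. Jun had no TGACG but 1 match to TGACNTCA, 45 to 38 bases before its start, and Atf3 had 1 TGACG, 7 to 3 bases before its start. Nr4a1 had 4 TGACG matches. Over 32851 windows of this length, 1.47% held a CArG box, 17.8% TGACG, 7.49% TGACNTCA and 7.59% TATAAA, and 6.75% held TGANTCA, the AP-1 site, which was in none of the windows of the 7 members. All motifs were searched on both strands except TATAAA, TGACNTCA was chosen after Jun's sequence was seen and overlaps TGACG where its middle base is G, and a match describes letters and not binding.

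Levels are given on 1 scale throughout: log2 of the processed signal minus the array's 75th percentile, so that 0 is the 75th percentile of that array. Levels of different genes come from different probes and are not compared. On the arrays, from 50.7% to 67.9% of spots exceeded background clearly, and 0 were saturated. Fos, Fosb, Jun, Junb, Atf3, Egr1, Ier2 and Nr4a1 were well above background on all 20 arrays. Egr2 was so on 19, all but liver on CD, and Egr3 on 2, ileum on CD and brown fat on HFD+Ex. Hepatocyte, adipocyte, brown adipocyte and gut epithelium markers were well above background in the tissue whose label calls for them. The arrays lay on 4 slides. Liver, ileum and colon each had their 4 diets on 1 slide, and so did CD and HFD of mesenteric fat and CD, HFD and HFD+PP of brown fat. HFD+PP and HFD+Ex of mesenteric fat and HFD+Ex of brown fat lay on another slide than HFD of the same fat, so slide and diet cannot be told apart in those comparisons.

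**Figure D1:**
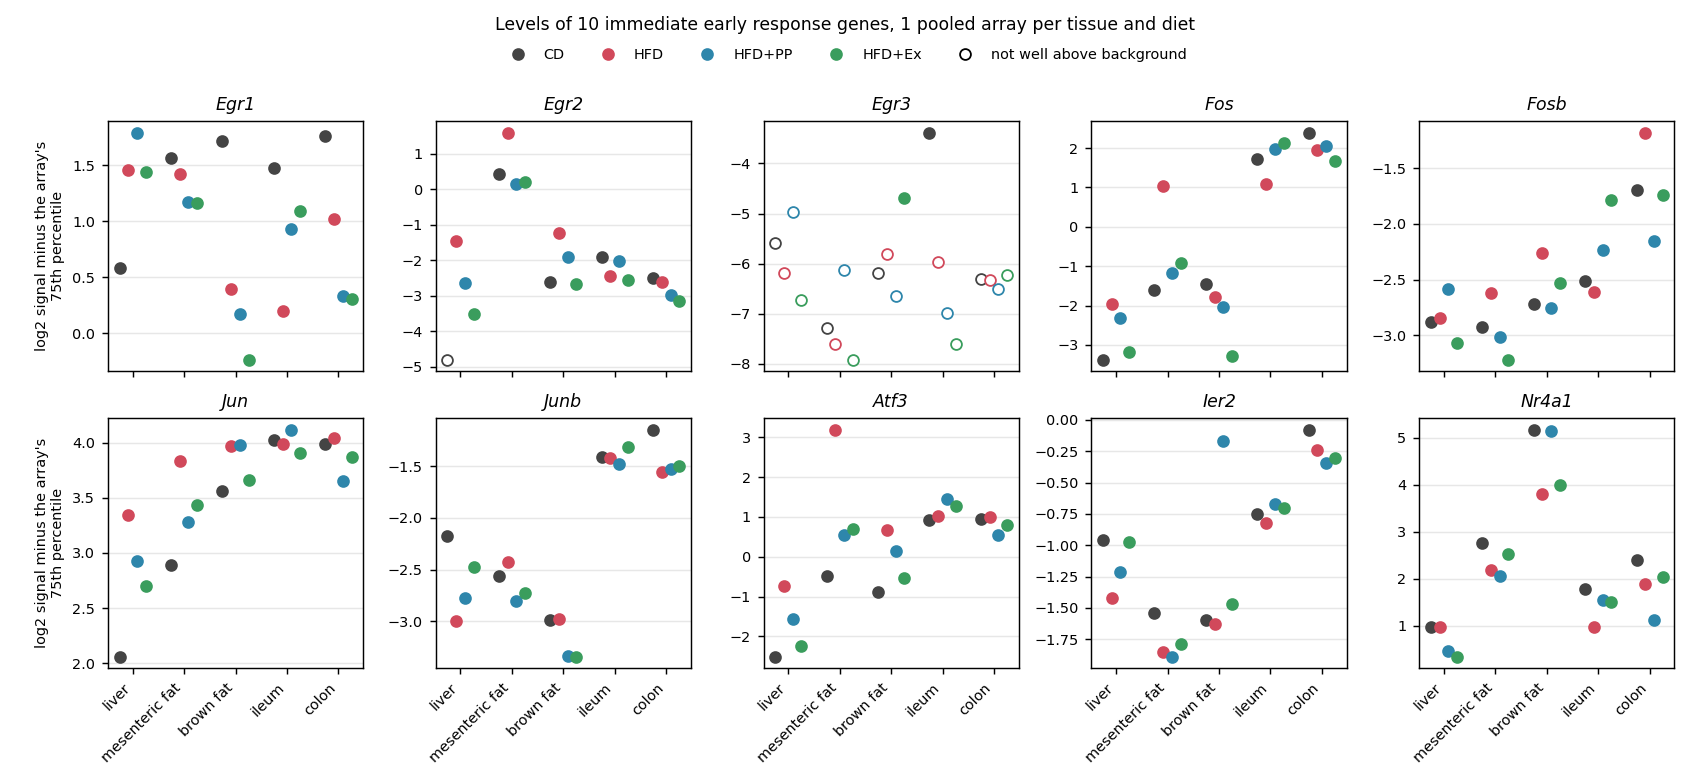
Level of each gene (log2 signal minus the array's 75th percentile, vertical axis, scaled per gene) on the 20 arrays, by tissue (horizontal axis) and diet (colour). Each point is 1 pooled array and open points were not well above background. Fos was highest in ileum and colon (1.097 to 2.39), Egr2 in mesenteric fat (0.17 to 1.60) and Nr4a1 in brown fat (3.81 to 5.18).

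The first comparison asks where each gene is expressed. The 4 pools of a tissue served as its replicates, although they differ in diet, so each standard deviation includes the diets. By limma's F test over the 5 tissues, 8 of the 9 members tested differed among tissues at an adjusted p under 0.05, where 96.2% of all 17385 genes tested did, and Egr3 was too dim to be tested. In such bulk RNA, fewer expressing cells and less RNA per cell cannot be told apart.

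Fos encodes the AP-1 subunit that is the textbook immediate early response. Its mean level was 2.02 ± 0.30 in colon (SD, n = 4 pools here and for every tissue mean below), 1.73 ± 0.45 in ileum, −0.66 ± 1.17 in mesenteric fat, −2.13 ± 0.79 in brown fat and −2.71 ± 0.69 in liver. Both gut tissues lay above the other tissues in all 4 pools, with the lowest gut array at 1.097 and the highest other array at 1.05. That margin, ileum against mesenteric fat on HFD, was below the technical SD of 0.092 log2 that repeat spots gave a difference. With the authors' scaling mesenteric fat on HFD lay above ileum on HFD. Colon exceeded liver 26.5-fold, a log2 difference of 4.73 ± 0.49 (SE, limma adjusted p = 4.94e-07), and ileum exceeded liver by 4.44 ± 0.49 (limma adjusted p = 9.54e-07). Neighbours in this order differed between ileum and mesenteric fat (2.39, limma adjusted p = 0.000561) and between mesenteric and brown fat (limma adjusted p = 0.0147), but not detectably between colon and ileum (adjusted p = 0.665) or brown fat and liver (adjusted p = 0.314). Without the HFD+Ex pools the difference between the fats, −1.18, no longer passed.

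Fosb, a close relative of Fos, had a narrower range. It was highest in colon at −1.69 ± 0.40, followed by ileum at −2.28 ± 0.37, brown fat at −2.57 ± 0.22, liver at −2.85 ± 0.20 and mesenteric fat at −2.94 ± 0.25. Colon exceeded ileum by 0.59 ± 0.21 (limma adjusted p = 0.0331), the only one of the 9 members called between the gut tissues, where 43.9% of all genes were called. That call was lost without the CD pools (0.52) and without the HFD pools (0.31). No other pair of neighbours in the order passed, and the order of mesenteric fat and liver turned to 0.62 higher in mesenteric fat with the authors' scaling.

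Jun, the main partner of Fos in AP-1, was at 4.01 ± 0.09 in ileum, 3.89 ± 0.17 in colon, 3.79 ± 0.21 in brown fat, 3.36 ± 0.39 in mesenteric fat and 2.76 ± 0.54 in liver. Liver was below each of the others, by 1.25 ± 0.18 against ileum (limma adjusted p = 1.6e-05) and by 0.60 ± 0.18 against mesenteric fat (limma adjusted p = 0.00718). The second of these did not pass without the HFD+Ex pools (0.56). Brown fat was 0.43 above mesenteric fat (limma adjusted p = 0.0434), but −0.07 with quantile normalization and −0.05 with the authors' scaling, and ileum, colon and brown fat were not told apart.

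Junb, the AP-1 subunit that restrains Jun at many promoters, split the tissues into gut and the rest. Ileum was at −1.41 ± 0.07 and colon at −1.43 ± 0.19, against −2.60 ± 0.36 in liver, −2.63 ± 0.17 in mesenteric fat and −3.16 ± 0.20 in brown fat. The gut arrays spanned −1.56 to −1.15 and the others −3.34 to −2.17, with no overlap. Colon exceeded liver by 1.17 ± 0.13 (limma adjusted p = 1.41e-06), and ileum exceeded brown fat by 1.75 ± 0.13, or 3.37-fold (limma adjusted p = 1.45e-08). Brown fat lay below mesenteric fat (limma adjusted p = 0.00249), a difference that turned to 0.07 the other way with normexp background correction. Mesenteric fat and liver did not differ beyond their spread (−0.02), and mesenteric fat was 0.32 higher with scaling to bright probes and 0.69 higher with the authors' scaling.

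Atf3, an ATF family factor of the stress response that can dimerise with Jun, was lowest in liver at −1.77 ± 0.79. Brown fat was at −0.15 ± 0.70, colon at 0.82 ± 0.20, mesenteric fat at 0.99 ± 1.56 and ileum at 1.17 ± 0.23. Ileum exceeded liver by 2.93 ± 0.45, or 7.63-fold (limma adjusted p = 2.69e-05), and brown fat exceeded liver by 1.62 ± 0.45 (limma adjusted p = 0.00474). Neighbours from brown fat up to ileum were not told apart. The spread was widest in mesenteric fat, where the HFD array stood apart from the other 3.

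Among the zinc finger genes, Egr1, which many growth factors induce, did not differ among tissues by the F test (limma adjusted p = 0.228). Its means ran from 0.51 ± 0.84 in brown fat to 1.33 ± 0.20 in mesenteric fat, and its 20 values from −0.24 to 1.79. Without the CD pools, 5 tissue pairs passed, with brown fat 1.45 below liver and 1.14 below mesenteric fat. Egr2, which also drives myelination and limits lymphocyte activation, stood out in mesenteric fat at 0.60 ± 0.67, against −2.10 ± 0.68 in brown fat, −2.23 ± 0.31 in ileum, −2.81 ± 0.30 in colon and −3.10 ± 1.41 in liver. Mesenteric fat exceeded liver 13.1-fold (3.71 ± 0.44, limma adjusted p = 2.15e-06) and brown fat 6.51-fold (limma adjusted p = 6.99e-05), and the other 4 tissues were not told apart. Egr3 was well above background only in ileum on CD, at −3.38, and in brown fat on HFD+Ex, at −4.68.

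Nr4a1 encodes Nur77, an orphan nuclear receptor that adrenergic stimulation induces in brown fat. Brown fat had the highest level, 4.54 ± 0.73, with all 4 arrays (3.81 to 5.18) above the highest array of any other tissue (2.77). Mesenteric fat followed at 2.39 ± 0.32, colon at 1.86 ± 0.54, ileum at 1.45 ± 0.34 and liver at 0.69 ± 0.33. Brown fat exceeded liver 14.3-fold (3.84 ± 0.28, limma adjusted p = 1.25e-08) and mesenteric fat 4.43-fold (limma adjusted p = 8.21e-06). Mesenteric fat and colon (adjusted p = 0.115) and colon and ileum (adjusted p = 0.261) were not told apart by limma, and the difference of 0.76 between ileum and liver (limma adjusted p = 0.0241) did not pass without the CD pools (0.75) or the HFD+Ex pools (0.63).

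Ier2, a small nuclear protein of growth factor responses, was highest in colon at −0.24 ± 0.12, then ileum at −0.74 ± 0.07, liver at −1.14 ± 0.22, brown fat at −1.22 ± 0.70 and mesenteric fat at −1.77 ± 0.16. Colon exceeded mesenteric fat by 1.53 ± 0.23, or 2.88-fold (limma adjusted p = 4.29e-05). Only brown fat and mesenteric fat differed among neighbours (0.55, limma adjusted p = 0.0451), and that difference did not pass without the HFD pools (0.66), the HFD+PP pools (0.16) or the HFD+Ex pools (0.63). Mesenteric fat lay 0.63 below liver (limma adjusted p = 0.0232), but 0.09 above it with the authors' scaling, and the difference did not pass without the CD pools (−0.64), the HFD pools (−0.69) or the HFD+Ex pools (−0.57).

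Counted over the 10 tissue pairs, the members called were 6 of 9 between mesenteric fat and liver, 4 between brown fat and liver, 6 between ileum and liver and 7 between colon and liver. The background was 79.9%, 71.0%, 78.9% and 77.9% of all genes in the same order. Between brown and mesenteric fat 7 members were called (background 74.0%), between ileum and mesenteric fat 7 (68.5%) and between colon and mesenteric fat 6 (68.0%). Between ileum and brown fat 4 were called (79.4%), between colon and brown fat 5 (76.5%) and between colon and ileum 1. The members' shares lay near or below the background in most pairs. All 4 colon arrays were on a slide of their own. Liver shared its slide only with CD and HFD of mesenteric fat, and ileum only with HFD+Ex of brown fat. Slide and tissue thus cannot be told apart for colon, between liver and brown fat, between liver and ileum, or between ileum and mesenteric fat. In the remaining pairs they can be told apart only in part.

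The second comparison asks what the high fat diet changed. With 1 array a group there is no test and no error, so a member is said to have risen or fallen only where it differed by at least 2-fold (1 log2) between the 2 arrays and at least 1 of them measured it well above background. Over the 4 diet comparisons and 5 tissues this gave 32 such differences in 8 members, 12 of them in brown fat, 9 in mesenteric fat, 8 in liver, 3 in ileum and 0 in colon. Fosb and Junb had none. Repeat spots on 1 array gave a difference a technical SD of 0.092 log2, which leaves out the animals. All 32 kept their sign with every other scaling and background correction tried, and 18 stayed past 2-fold with normexp background correction. Scaling to bright probes and the authors' scaling shift whole arrays by less than these differences, so they could not turn a sign.

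In liver, HFD went with higher Egr2, Atf3, Fos and Jun. Of 9 measured members 4 rose and 0 fell, where 3.45% of 15375 measured genes rose and 1.35% fell. The median of the members was 0.88 against −0.05 over all measured genes. Egr2 was measured only through HFD and could not come out lower, so its part in that count and median is no support. Egr2 was at −4.80 on CD, not well above background, and at −1.46 on HFD, −2.63 on HFD+PP and −3.52 on HFD+Ex, so HFD was at least 10.1-fold above CD (3.34). Atf3 was at −2.51, −0.74, −1.57 and −2.24 in the same order of diets, a 3.40-fold rise from CD to HFD (1.76). The AP-1 partners Fos and Jun followed the same order. Fos was at −3.38, −1.95, −2.31 and −3.19, a 2.69-fold rise (1.43, and 0.58 with normexp). Jun was at 2.06, 3.34, 2.93 and 2.70, a 2.43-fold rise (1.28). In all 4 genes CD was the lowest array and HFD the highest, with both supplements between. Egr1 was at 0.58 on CD and 1.46 on HFD (0.88), and Junb was at −2.17 on CD and −2.996 on HFD (−0.82), neither past 2-fold. Ier2 (−0.46), Fosb (0.03) and Nr4a1 (0.00) lay closer to 0.

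In mesenteric fat, 3 of 9 measured members rose from CD to HFD and 0 fell, where 8.88% of 16353 genes rose and 8.46% fell, and the members' median was 0.31 against 0.12 over all genes. Atf3 was at −0.48 on CD, 3.20 on HFD, 0.54 on HFD+PP and 0.70 on HFD+Ex. The HFD array stood 12.8-fold above CD (3.68). Fos was at −1.61, 1.05, −1.17 and −0.92, a 6.30-fold rise (2.65), and Egr2 at 0.43, 1.60, 0.17 and 0.22, a 2.25-fold rise (1.17, and 0.97 with normexp). HFD was the highest array for these 3 genes, and CD the lowest for Atf3 and Fos but not for Egr2. Jun had the same order of arrays as Atf3 (2.89, 3.83, 3.28 and 3.43) but stayed within 2-fold (0.94). Nr4a1 (−0.58), Ier2 (−0.31), Egr1 (−0.14), Junb (0.13) and Fosb (0.31) were also within 2-fold.

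In brown fat the members went both ways: 2 of 9 rose, where 6.27% of 14952 genes did, and 2 fell, where 3.08% did. Atf3 was at −0.89 on CD, 0.67 on HFD, 0.15 on HFD+PP and −0.53 on HFD+Ex, a 2.95-fold rise (1.56). Egr2 was at −2.60, −1.22, −1.90 and −2.67, a 2.59-fold rise (1.37, and 0.61 with normexp). Egr1 fell, with 1.71 on CD against 0.39, 0.17 and −0.24 on the 3 high fat diets (−1.32 for HFD). Nr4a1 also fell, from 5.18 on CD to 3.81 on HFD (−1.37), and was at 5.15 on HFD+PP and 3.999 on HFD+Ex. Fos (−0.34), Jun (0.41) and Fosb (0.46) were within 2-fold. Of all called genes, 67.1% rose in the deposited processed signals scaled at the 75th percentile, against 80.0% with scaling to bright probes (1247 higher, 312 lower) and 84.7% with the authors' scaling (1465 higher, 265 lower). These scalings moved the median of all genes by 0.18 and 0.28 log2, and quantile normalization moved it by 0.13. The 4 member differences exceed these shifts and kept their side of 2-fold under each of them.

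In ileum, 0 of 10 measured members rose and 2 fell, where 1.57% of 16509 genes rose and 2.33% fell. Egr1 was at 1.47 on CD, 0.19 on HFD, 0.93 on HFD+PP and 1.09 on HFD+Ex, a fall of 1.28 log2 to the lowest array of the 4. Egr3 was at −3.38 on CD and not well above background on the other 3 diets, at least 4.26-fold below CD on HFD. Measured only through CD, Egr3 could not come out higher, so its fall is no support, and 1 fall remained where both arrays were measured. With normexp that Egr3 difference was −0.39. Nr4a1 (−0.80), Fos (−0.64) and Egr2 (−0.53) lay lower within 2-fold, and Jun (−0.04) and Atf3 (0.08) hardly differed. The split of all called genes, 259 higher and 384 lower, became 348 and 272 with quantile normalization and 205 and 485 with the authors' scaling. In colon, 0 of 9 members rose and 0 fell, where 0.45% of 17093 genes rose and 1.70% fell. Egr1 had the widest difference there (−0.74, from 1.76 to 1.02), followed by Fosb (0.52) and Nr4a1 (−0.51), and Atf3 (0.05) and Jun (0.05) were level.

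**Figure D2:**
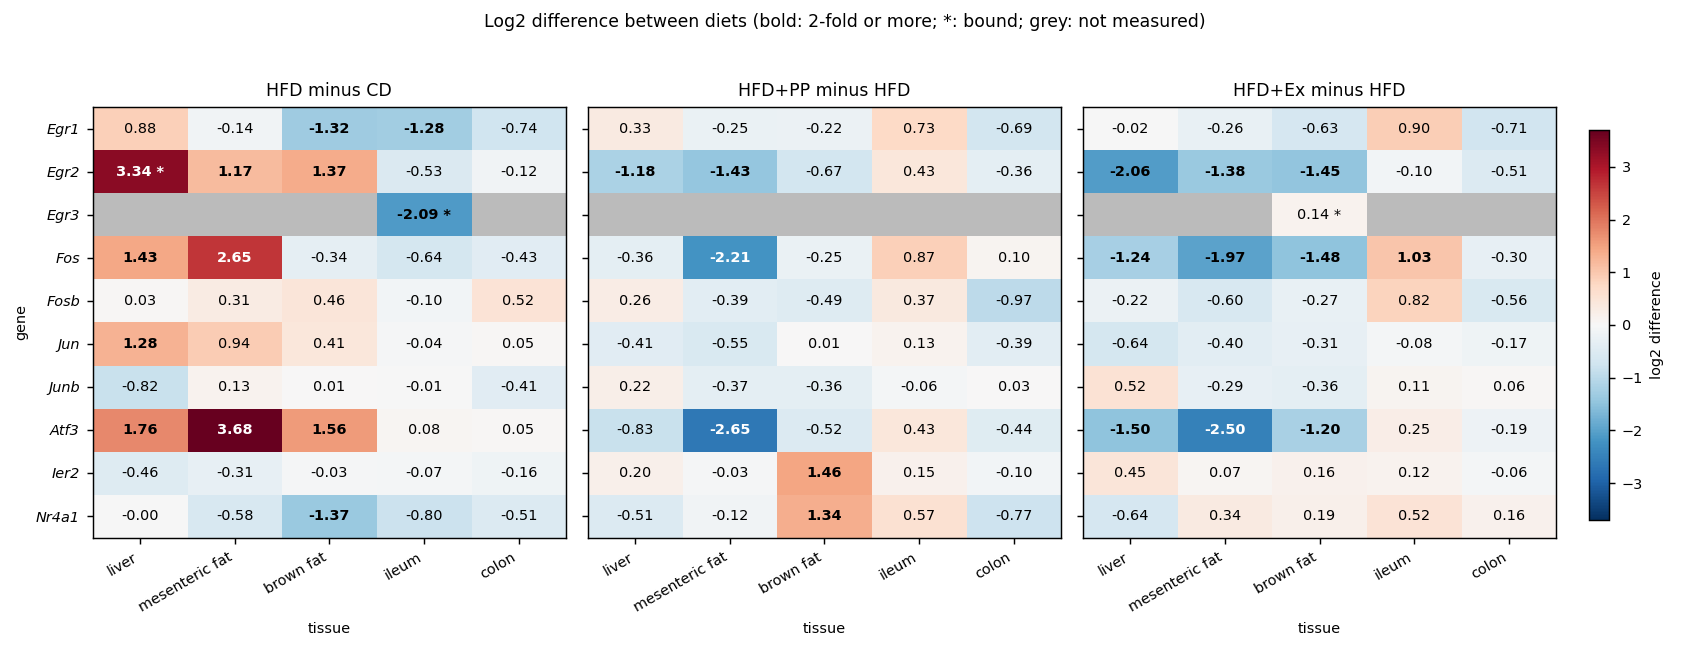
Log2 difference of each gene (rows) in each tissue (columns) between single pooled arrays, for HFD minus CD, HFD+PP minus HFD and HFD+Ex minus HFD. Red is higher and blue lower in the first-named diet, bold marks 2-fold or more, a star marks a bound and grey a gene not measured. Atf3, Egr2 and Fos were red in liver and mesenteric fat on HFD against CD (1.17 to 3.68) and blue there on HFD+Ex against HFD (−2.50 to −1.24).

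The third comparison asks what porphyran changed on the high fat diet. It shares the HFD arrays with the one before, so a high HFD array moves both, and their values are only set side by side. In liver, 0 of 9 members rose and 1 fell, where 0.579% of 15370 genes rose and 1.54% fell (with quantile normalization, 67 rose and 323 fell in place of 89 and 237). Egr2 fell 2.26-fold (−1.18, and −0.66 with normexp), and Atf3 was at −0.83, Jun at −0.41 and Fos at −0.36. In mesenteric fat, 0 of 9 rose and 3 fell, where 4.69% of 16666 genes rose and 4.22% fell. Atf3 fell 6.29-fold (−2.65), Fos 4.63-fold (−2.21) and Egr2 2.70-fold (−1.43). The remaining 6 members lay between −0.55 (Jun) and −0.03 (Ier2).

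In brown fat, porphyran went with higher Ier2 and Nr4a1: 2 of 9 members rose and 0 fell, where 1.51% of 15106 genes rose and 2.18% fell. Ier2 was at −0.17 on HFD+PP against −1.60 on CD, −1.63 on HFD and −1.47 on HFD+Ex, so the HFD+PP array stood apart from the other 3 (2.74-fold over HFD, 1.46, and 0.64 with normexp). Nr4a1 rose 2.54-fold (1.34) to the level of CD. Egr2 (−0.67), Atf3 (−0.52) and Fosb (−0.49) were lower within 2-fold. Skeletal muscle markers moved on the same array, with 4 of 7 above HFD by 2-fold or more, none at 0 and a summed level of 125.7 against 64.6 on HFD, 96.0 on CD and 84.2 on HFD+Ex, and their part in the result was not tested. In ileum, 0 of 9 members rose and 0 fell, where 1.97% of 15978 genes rose and 0.939% fell, with Fos at 0.87 and Egr1 at 0.73. In colon, 0 of 9 rose and 0 fell, where 1.71% of 16972 genes rose and 1.11% fell, with Fosb at −0.97, Nr4a1 at −0.77 and Egr1 at −0.69.

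The extract was compared with HFD in the same way, again against the shared HFD arrays. In liver, 0 of 9 members rose and 3 fell, where 1.43% of 14972 genes rose and 1.63% fell. Egr2 fell 4.17-fold (−2.06), Atf3 2.83-fold (−1.499) and Fos 2.36-fold (−1.24), and with normexp none of these passed 2-fold (−0.84, −0.99 and −0.53). In mesenteric fat, 0 of 9 rose and 3 fell, where 3.64% of 16639 genes rose and 3.78% fell. The 3 were again Atf3 (5.65-fold, −2.50), Fos (3.92-fold, −1.97) and Egr2 (2.60-fold, −1.38).

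In brown fat, 0 of 10 members rose with the extract and 3 fell, where 0.846% of 15962 genes rose and 3.31% fell. Fos was at −1.45 on CD, −1.78 on HFD, −2.03 on HFD+PP and −3.27 on HFD+Ex, so the extract array was the lowest, 2.80-fold below HFD (−1.48, and −0.65 with normexp). Egr2 fell 2.73-fold (−1.45, and −0.76 with normexp) and Atf3 2.30-fold (−1.20). Egr3, measured only through the extract array, was at least 0.14 log2 above HFD. In ileum, 1 of 9 members rose and 0 fell, where 1.16% of 16256 genes rose and 0.695% fell. That member was Fos, at 1.74 on CD, 1.097 on HFD, 1.97 on HFD+PP and 2.13 on HFD+Ex, a 2.04-fold rise from the lowest array to the highest (1.03, and 0.99 with normexp). In colon, 0 of 9 rose and 0 fell, where 1.12% of 16905 genes rose and 0.402% fell, with Egr1 at −0.71.

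Between the supplements, at the same dose by weight, brown fat differed. There 0 of 10 members were higher and 3 lower with the extract than with porphyran, where 1.24% of 15924 genes were higher and 1.53% lower (with quantile normalization, 125 and 372 genes in place of 197 and 243). The 3 were Ier2 (−1.30), Fos (−1.24) and Nr4a1 (−1.15), and these arrays lay on different slides. With normexp, Ier2 (−0.56) and Fos (−0.49) were no longer past 2-fold. In the other tissues 0 members were higher and 0 lower. The background there was 1.35% higher and 0.509% lower of 15317 genes in liver, 0.885% and 2.48% of 16720 in mesenteric fat, 1.31% and 2.00% of 16214 in ileum and 1.74% and 1.39% of 16850 in colon. The nearest to 2-fold were Nr4a1 in colon (0.93) and Egr2 (−0.89) and Fos (−0.87) in liver.

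**Figure D3:**
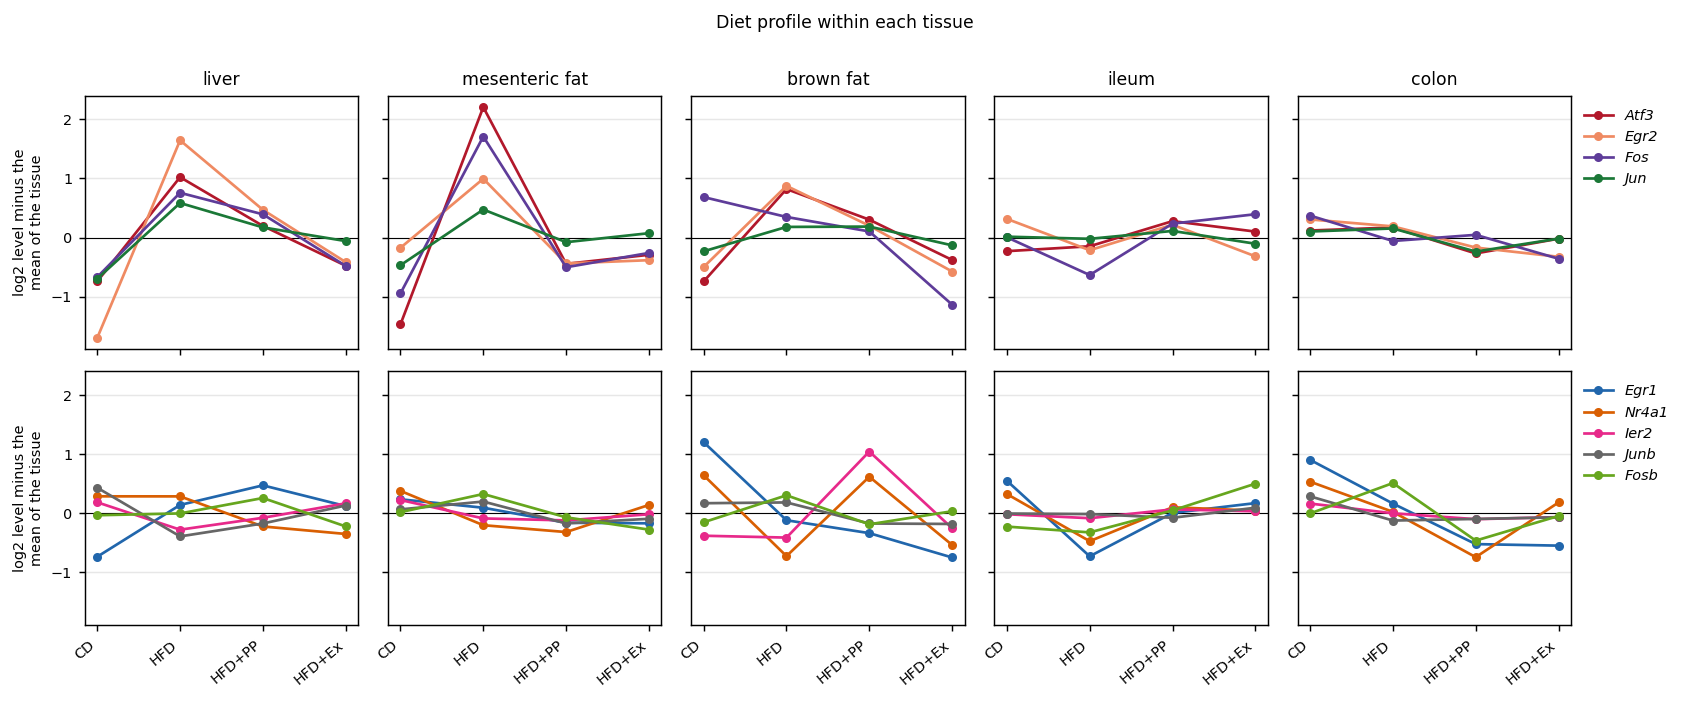
Level of each gene on each array minus the mean of its 4 arrays in that tissue (log2, vertical axis) by diet (horizontal axis), for Atf3, Egr2, Fos and Jun (upper row) and for Egr1, Nr4a1, Ier2, Junb and Fosb (lower row). Each point is 1 pooled array. In liver all 4 upper genes were lowest on CD and highest on HFD, whereas in ileum and colon the widest departure of these 4 was −0.63, for Fos in ileum on HFD.

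How the members moved together was described by the correlation over the 20 arrays after each gene's tissue mean was removed. The arrays share pools and slides, so no p is given. Egr2 and Jun had a Pearson r of 0.88, Jun and Atf3 0.84, Fos and Atf3 0.79, Egr2 and Atf3 0.74, Egr2 and Fos 0.67, and Fos and Jun 0.66. Leaving out 1 tissue at a time gave at least 0.73 for Egr2 and Jun, 0.83 for Jun and Atf3 and 0.53 for Fos and Atf3, the last without mesenteric fat. Egr1 had an r of 0.02 with Atf3, 0.51 with Fos and 0.50 with Nr4a1. Nr4a1 and Ier2, both high on HFD+PP in brown fat, had 0.45. Junb went with none of the 4 (−0.47 with Jun, −0.39 with Egr2, −0.11 with Atf3 and 0.08 with Fos). Spearman's rho for Egr2 and Jun was 0.80 and for Jun and Atf3 0.90.

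**Figure D4:**
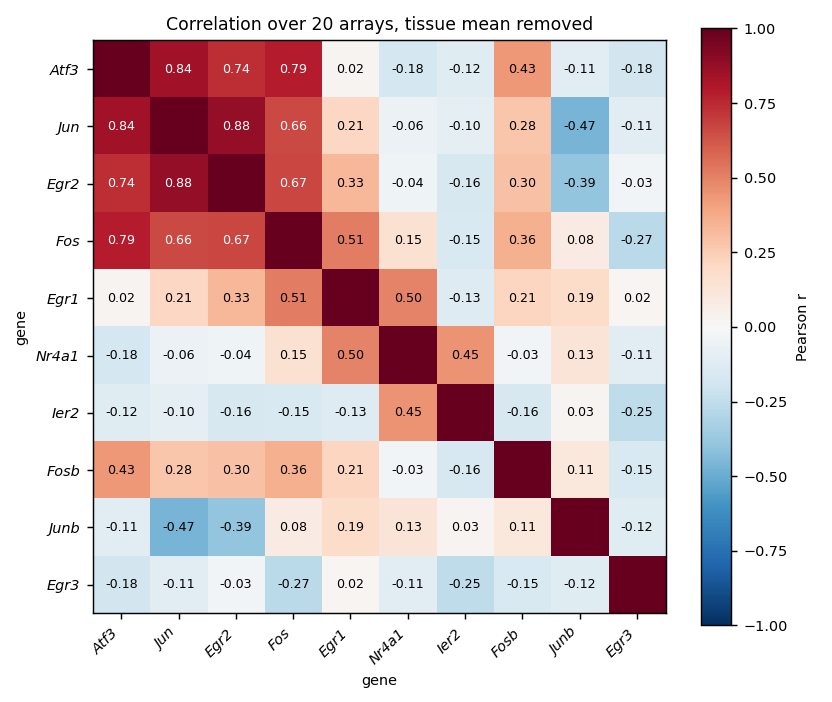
Pearson r between each pair of genes over the 20 arrays after the tissue mean was removed (colour and printed value, no axis unit). Atf3, Jun, Egr2 and Fos form a block with r from 0.66 to 0.88, and Egr1 and Nr4a1 lie outside it apart from 0.51 between Egr1 and Fos and 0.50 between each other.

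The genes whose pattern over the 20 arrays was most like the mean of the members were sought among 12268 other genes well above background on every array. The 10 with the highest r, after removing tissue means, were Ccn1 (0.82), BC048403 (0.80), Rab11fip5 (0.80), Vwf (0.79), Ccn2 (0.78), Pdgfb (0.78), Gas7 (0.78), Aox1 (0.77), Dusp1 (0.77) and Niban1 (0.77). Ccn1 and Ccn2 encode secreted matricellular proteins that are themselves immediate early genes, and Dusp1 encodes a phosphatase that turns MAP kinases off. The list was loose at its edge: 4 of the 10 were shared when Egr3, dim on most arrays, was left out of the mean, 4 with quantile normalization and between 2 and 5 when 1 tissue was left out.

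Beyond the 10, another 30 immediate early genes were on the arrays. From CD to HFD, 6 of 28 measured rose and 3 fell in mesenteric fat (median 0.48), where 8.88% of all genes rose and 8.46% fell. In liver 1 rose and 2 fell of 26 (0.02), against 3.45% and 1.35% of all genes. In brown fat 0 rose and 2 fell of 27 (0.15), against 6.27% and 3.08%, and 0 moved in ileum (−0.07) or colon (−0.03). In mesenteric fat the kinase gene Plk2 rose by 1.69 log2, Npas4 by 1.57 and Ccn1 by 1.51, whereas Arc, a synaptic cytoskeleton gene, fell by 2.06. In liver Ccn2 rose (1.59) and Gadd45g (−1.07) and Csrnp1 (−1.07) fell. In brown fat Nr4a2, a relative of Nr4a1, fell (−1.46), as did the small Maf gene Maff (−1.04). Against HFD, 0 rose and 3 fell with porphyran in mesenteric fat, among them Npas4 (−1.25) and Plk2 (−1.10). There 4.69% of all genes rose and 4.22% fell. Fosl1, an AP-1 subunit, was measured only through HFD in that comparison and could not come out higher, so it adds no support. It was also dim on CD, so from CD to HFD it could not come out lower. With the extract 0 rose and 2 fell in mesenteric fat, Fosl1 (−1.25) and Npas4 (−1.02), where 3.64% of all genes rose and 3.78% fell. In the other 4 tissues 0 members of this list passed 2-fold with either supplement.

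Of the feedback inhibitors, which switch the response off, 3 of 17 were higher and 3 lower on HFD than on CD in mesenteric fat, where 8.88% of all genes rose and 8.46% fell. Spry4, a receptor signalling inhibitor, rose (1.55), and the phosphatase genes Dusp2 (−3.26) and Dusp5 (−1.37) and the cytokine signalling inhibitor Socs3 (−1.72) fell. Dusp2 and Socs3 were higher on HFD+PP (2.24 and 1.03) and HFD+Ex (2.04 and 1.07) than on HFD. In liver and brown fat 0 of 15 and 0 of 16 measured passed 2-fold on HFD, in ileum Socs3 fell (−1.03), and in colon Socs3 rose with porphyran (2.02). Of the 15 kinases and factors upstream of the response, 1 passed 2-fold in liver (Egfr, −1.24) and 1 in mesenteric fat (Egfr, 1.05) on HFD, and 0 in any tissue with either supplement against HFD. On HFD 1.35% of all genes fell in liver and 8.88% rose in mesenteric fat. Egfr encodes the epidermal growth factor receptor.

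Of the 13 heat shock genes measured, 0 passed 2-fold between HFD and CD in liver, brown fat, ileum and colon, and 2 rose in mesenteric fat, the chaperone genes Hspb1 (1.22) and Hspa1a (1.19). With porphyran 0 passed 2-fold in any tissue, and with the extract Hspb1 rose in ileum (1.30), the array on which Fos rose. On that array 1.16% of all genes rose against HFD. Of 14 hypoxia genes, 1 rose in liver on HFD (Hk2, 1.20), 2 rose and 2 fell in mesenteric fat and 2 rose and 2 fell in brown fat. Car9 in brown fat was measured only through HFD and could not come out lower, so it adds no support to that count. Adm, a vasodilator peptide gene, rose in both fats (1.24 and 1.31). Of the clock genes, 0 rose and 2 fell in liver on HFD (Nr1d1, −1.05, and Bhlhe41, −1.01), and 0 moved in either fat. Against HFD, the clock gene Ciart rose in brown fat with porphyran (1.11) and with the extract (1.02), the only one of 13 measured past 2-fold in each. Of all genes there, 1.51% rose with porphyran and 0.846% with the extract. Of 9 glucocorticoid-induced genes, 3 rose in liver, Lcn2 (3.95) and the metallothionein genes Mt2 (1.29) and Mt1 (1.13), and 1 fell, Zbtb16 (−1.05). In mesenteric fat 2 rose, Mt2 (1.83) and Lcn2 (1.08). Lcn2 also rose in brown fat (1.34) and fell in ileum (−1.33), 1 of the 9 in each. With porphyran against HFD, Mt2 (−1.25), Sgk1 (−1.20) and Mt1 (−1.07) fell in colon, Mt2 fell in ileum (−1.12), and Zbtb16 rose in liver (1.33, and 1.09 with the extract). Of all genes, 1.11% fell with porphyran in colon and 0.939% in ileum. In liver 0.579% rose with porphyran and 1.43% with the extract. The part of these lists in the members' differences was not tested.

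Of the inflammatory mediators, several of which are early response genes too, 5 of 9 measured were higher and 0 lower on HFD than on CD in liver, where 3.45% of all genes rose and 1.35% fell. In mesenteric fat 5 of 12 were higher and 3 lower, against 8.88% and 8.46% of all genes, and Il1b (−1.74) and Tnf (−1.27) were among those that fell. In brown fat 5 of 7 were higher and 0 lower, against 6.27% and 3.08%, but 3 of the 12 genes were well above background on CD and 7 on HFD. Genes measured only through the HFD array had to come out higher, so that count is no support, and the 2 past 2-fold that both arrays measured were Ccl2 and Icam1 (1.40). In liver Tnf was measured only through HFD, and in mesenteric fat Cxcl2 and Il1rn were. In ileum 0 of 10 were higher and 2 lower, against 1.57% and 2.33% of all genes. In colon 0 of 10 were higher and 0 lower, against 0.45% and 1.70%. The monocyte attractant Ccl2 rose by 2.56 in liver, 2.82 in mesenteric fat and 2.52 in brown fat. With the extract it fell by 1.40 in liver and by 1.77 in brown fat, and with porphyran by 1.78 in mesenteric fat. In mesenteric fat on the extract, Il1b (2.53) and Il6 (2.31) rose while Atf3, Fos and Egr2 fell.

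**Figure D5:**
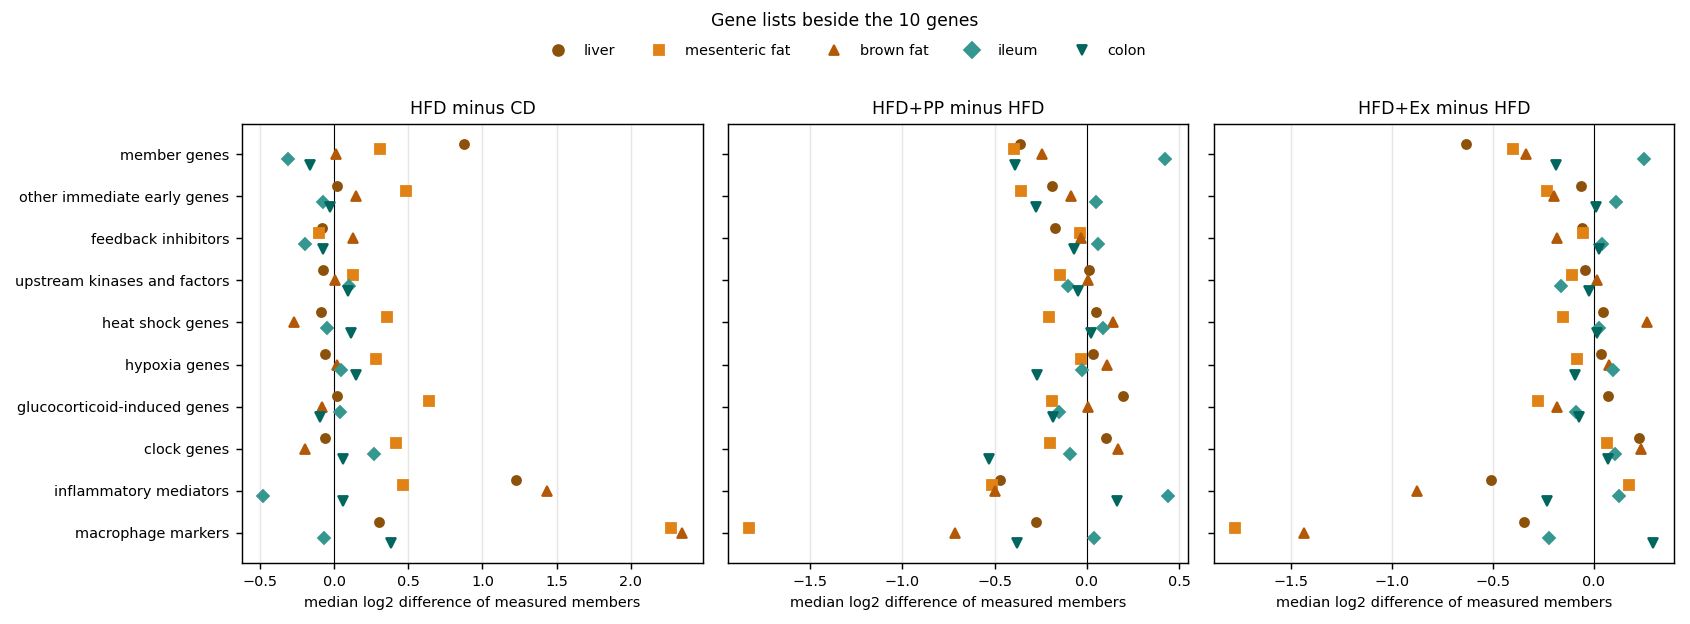
Median log2 difference of the measured genes of each list (horizontal axis) for the 10 members and 9 other lists (rows), by tissue (symbol), for 3 diet comparisons (panels). Each point rests on 2 pooled arrays. On HFD against CD the members' median was 0.88 in liver and 0.31 in mesenteric fat, and the macrophage markers' median was 2.27 in mesenteric and 2.34 in brown fat. Egr2 in liver and the markers Cd163 and Mmp12 in brown fat were measured only through HFD and could not come out lower.

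Markers of other cell types moved on the same arrays. On HFD against CD, 3.45% of all measured genes rose and 1.35% fell in liver. In mesenteric fat 8.88% rose and 8.46% fell, and in brown fat 6.27% and 3.08%. A marker dim on either array of a comparison could not come out higher on that array, so it adds no support to the counts here and below. Macrophage markers rose on HFD in 8 of 10 cases in mesenteric fat, with a summed level (linear, relative to the 75th percentile) of 96.3 on CD, 285 on HFD, 116 on HFD+PP and 118 on HFD+Ex, the order of arrays seen for Atf3 and Fos. In brown fat 10 of 10 rose, with sums of 23.4, 78.8, 51.9 and 35.2, the order of Atf3, and Cd163 and Mmp12 were not well above background on CD. In liver 4 rose and 1 fell of 10, with Gpnmb and Mmp12 not well above background on CD and HFD+Ex. The sums, in which the brightest markers weigh most, hardly moved (54.0, 55.1, 51.4 and 50.5). The median level of the 10 was −0.46 on CD, 0.73 on HFD, −0.11 on HFD+PP and −0.14 on HFD+Ex, so it was highest on HFD. Of those past 2-fold that both CD and HFD measured, Itgax (2.27) and Trem2 (2.10) rose and Cd163 (−1.04) fell. In liver, smooth muscle markers rose in 5 of 7 cases (sums of 6.34, 13.5, 7.91 and 5.66, with Lmod1 not well above background on any diet), and mesothelial markers in 5 of 6 (0.429, 1.20, 0.693 and 0.716, with Upk3b and Lrrn4 not well above background on CD and HFD+Ex, and Lrrn4 not on HFD+PP). Adipocyte markers in liver rose in 4 of 4 measured cases (4.52, 36.9, 12.6 and 14.1), with Lep not well above background on any diet, Plin1 not on CD, HFD and HFD+Ex, Adipoq not on CD and either supplement, and Retn not on CD. Those that both CD and HFD measured were Cidec (4.28) and Fabp4 (1.77). The part of these cells in the members' differences was not tested.

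Mesenteric fat also varied in neighbouring tissue. From CD to HFD, 8.88% of all genes there rose and 8.46% fell. Exocrine pancreas markers fell on HFD in 10 of 10 cases, with sums of 765 on CD, 15.7 on HFD, 1296 on HFD+PP and 360 on HFD+Ex. T and NK cell markers fell in 8 of 9 cases (121, 18.1, 54.0 and 49.9) and B and plasma cell markers in 8 of 8 (162, 17.7, 88.2 and 79.7). Intestinal epithelium markers rose in 9 of 9 (6.33, 38.4, 32.8 and 7.13). All markers of the pancreas, T and NK cell and B and plasma cell lists were well above background on the 4 arrays, and of the intestinal list Muc2 was not on CD and HFD+Ex. HFD was thus the array highest in Atf3, Fos and Egr2 and in intestinal epithelium markers, and lowest in pancreas and lymphocyte markers. Smooth muscle markers also had their highest sum on HFD (304.8 on CD, 525.6 on HFD, 315.9 on HFD+PP and 390.9 on HFD+Ex). The part of those tissues in the difference was not tested.

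Brown fat and ileum varied in such markers too. From CD to HFD, 6.27% of all genes rose and 3.08% fell in brown fat. In brown fat, hepatocyte markers were higher on HFD than on CD in 4 of 6 cases and lower in 1 (Alb at 3.48, Hpx at 2.81, Ttr at least 3.49, and Cyp2e1 at −1.64). Against HFD, 4 of 6 fell and 1 rose with each supplement, with Alb at −4.05 on porphyran and −2.16 on the extract. Of all genes, 1.51% rose and 2.18% fell with porphyran, and 0.846% and 3.31% with the extract. The summed level was 15.8 on CD, 8.63 on HFD, 14.7 on HFD+PP and 11.8 on HFD+Ex, and 4, 6, 5 and 5 of the 6 markers were well above background on these arrays, with Ttr not so on CD. Skeletal muscle markers in brown fat rose with porphyran in 4 of 7 cases (sums of 96.0, 64.7, 125.7 and 84.2, all well above background).

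In ileum, where Fos was lowest on HFD, 1.57% of all genes rose and 2.33% fell from CD to HFD. Adipocyte markers fell in 4 of 6 cases, with Retn at −3.41, Plin1 at −2.31 and Adipoq at −2.03. Their sums were 47.5, 20.8, 40.5 and 19.2, all well above background. Hepatocyte markers fell in 4 of 6 cases, with Alb at a bound of −6.61, and sums of 9.02, 2.17, 3.26 and 2.51. All 6 were well above background on CD, 3 on HFD, 4 on HFD+PP and 3 on HFD+Ex, with Alb not so on HFD or either supplement, nor Hpx on HFD and HFD+Ex. Of 8 smooth muscle markers 0 passed 2-fold (median −0.55), with sums of 577.6, 398, 621 and 557, all well above background. The part of these cells in the members' differences in brown fat and ileum was not tested.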

How the data were processed

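Per the file headers, 20 1-colour arrays were read with Agilent Feature Extraction 11.5.1.1 (protocol GE1_1105_Oct12). Per spot, the deposited scanner files hold a processed linear intensity, after the scanner software's background subtraction and detrending, and the median signals of spot and background. The series matrix deposited by the authors holds the processed intensity times 1 factor per array. From the processed intensities, control spots and flagged spots (117 to 206 per array) were left out, spots of a probe averaged, log2 taken and the array's 75th percentile subtracted. No deposited column was on a log2 scale. Of 55681 probes, 28020 matched a symbol by RefSeq accession (GRCm38.p6), giving 21150 genes, and the brightest probe stood for each of the 5679 genes with several.

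Between diets a gene dim on 1 array was set at the floor of that array (−6.57 to −4.69, or its own signal if higher) and its difference is a bound. Tissues were compared with limma 3.58.1 (R 4.3.3), with tissue and diet pool in the fit, over 17385 genes well above background on at least 4 arrays, with Benjamini-Hochberg adjustment, and the script was tested on simulated data. P-values and SEs measure the spread between pools that is left after tissue and diet are fitted. That spread includes any diet effect that differs between tissues. The pool block comes from the design, in which the 5 tissues of a diet are from the same mice. Normexp (offset 50) used the median signals of spot and background, and the mean signal was not used here. The members and the gene lists were chosen with earlier results of these data known. All 10 members were named, per list up to 4 genes past 2-fold and measured on both arrays, and the 10 genes most like the members. Of 249 list entries 3 matched no gene, and 2 genes are in several lists. Alternatives were normexp, quantile normalization, the 75th percentile of probes well above background on all arrays, the authors' factors, the mean of a gene's probes, other filters, 1.5-fold, other fits and left-out pools or tissues. The values of some marker genes are not reported here.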

Additional observations from a re-analysis of the deposited data

Results flagged for a closer look

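Fos went opposite ways with the extract: against HFD it was 1.03 log2 higher in ileum but 1.24 lower in liver, 1.97 lower in mesenteric fat and 1.48 lower in brown fat. The differences between tissues in this change were 2.27 for ileum against liver, 2.999 for ileum against mesenteric fat and 2.51 for ileum against brown fat. Each rests on 4 single arrays and was not tested.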

How the results depend on the processing

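All 32 member differences past 2-fold kept their sign under each scaling and background correction run. Scaling to bright probes and the authors' factors move all genes of an array alike, by less than these differences, so they could not turn a sign. Nor could the choice of probe, with 1 probe per member, or the filter on both arrays, under which 30 were measured. Normexp left 18 past 2-fold. The counts became 0 fallen in liver with porphyran and 0 with the extract, 1 fallen in brown fat with the extract against HFD and 1 against porphyran, 1 risen in brown fat on HFD and 1 with porphyran, 1 fallen in ileum on HFD and 0 risen in ileum with the extract. Requiring both arrays above background left 1 fallen in ileum on HFD. Without a filter on dim genes, Egr3 added 1 count in each of 8 comparisons: higher with porphyran than HFD in liver and in mesenteric fat, lower with the extract than porphyran in both, higher with the extract than HFD and than porphyran in brown fat, and lower with either supplement in ileum. At 1.5-fold, counts of fallen members became 1 on HFD, 2 with porphyran, 5 with the extract and 3 between supplements in liver, 1 with porphyran and 5 between supplements in brown fat, 4 on HFD in ileum, and 1 on HFD, 3 with porphyran and 1 with the extract in colon. Risen members became 2 with porphyran and 3 with the extract in ileum, and 1 between supplements in colon. The cause of these changes was not tested beyond the settings' own construction.

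Between tissues, members called for ileum against brown fat became 7 with scaling to bright probes and 7 with the authors' scaling, and for colon against ileum 2 with slide as a random block and 2 with only those 8 arrays. Leaving out 1 diet's pools gave 0 to 3 for colon against ileum and 3 to 8 for brown against mesenteric fat (3 without HFD+Ex, 4 without HFD+PP). Without the replicate block of diet pools, 8 members still differed among tissues and brown against mesenteric fat gave 5 in place of 7, and no count moved by over 1.5 times. Reversed were brown minus mesenteric fat for Junb (0.0663 with normexp) and Jun (−0.0712 with quantile normalization, −0.0486 with the authors' scaling), and mesenteric fat minus liver for Junb (0.32 with bright probes, 0.69 with the authors' scaling), Fosb (0.62) and Ier2 (0.0893), both with the authors' scaling. Of the 10 genes most like the members, 4 were shared with quantile normalization, 4 without Egr3 (chosen after seeing the data) and 2 to 5 without 1 tissue.

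The limit is the design: 1 pooled array per tissue and diet gives no spread between mice, and only the tissue comparison has replicates. Signal over background limits Egr3, Egr2 in liver and the low arrays of Fos.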
